A study of Mus musculus with 5 samples.

Results

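The genes described here are the DEAD-box and DEAH-box RNA helicases, chosen by their symbols: every gene whose symbol is Ddx or Dhx followed by a number and at most 1 letter, without the X-linked Ddx3x and the Y-linked Ddx3y. There were 50 such genes among the 22653 single symbols of the expression table. Where a symbol had several rows the rule took the row of highest mean level. No helicase had more than 1 row, so no measured value decided which row stood for a gene. The set and its function lists were, however, chosen with earlier results of these data known. Of the 50, 45 reached a mean of 1 FPKM (a fragment count corrected for transcript length and for the library's total) over both genotypes, and none of these did so through a single genotype. Ddx58 had the lowest mean of those included (2.74 FPKM) and Dhx58 the highest of those below the minimum (0.423 FPKM).

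The tissue was the mouse forelimb at E11.5, when embryos had 47 to 48 somites, from a mixed C57BL/6 and Swiss Webster strain background. The Prmt5cKO group (2 samples) carried Prx1Cre+/- and Prmt5c/c, so that Cre driven by the Prx1 promoter, which is active in limb bud mesenchyme, acted on conditional copies of the arginine methyltransferase gene Prmt5. The control group (3 samples) is labelled only as control, so whether it carried Cre or conditional alleles is not given. The samples of each group are biological replicates per the series' design. Total RNA of the whole forelimb was sequenced, which includes ectoderm, vessels, blood and other cells that Prx1Cre does not target.

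RNA helicases use ATP to pull apart RNA strands or to strip proteins from RNA. The DEAD-box and DEAH-box families are named after 4 amino acids at the ATP-binding centre. Different members serve at fixed steps: several drive the folding and cleavage of ribosomal RNA in the nucleolus, others rearrange the small nuclear RNPs during splicing, and others act in mRNA export, translation, mRNA decay or the sensing of viral RNA. Prmt5 methylates the Sm proteins that form the core of spliceosomal snRNPs, so helicases of splicing work on particles that contain its substrates.

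The box that gives the family its name can be read in the mRNAs. The stretches below are coding sequence from GENCODE M21 transcripts (GRCm38), 5′ to 3′ on the mRNA strand, for those helicases that changed between genotypes and in which the search found a box; the capitals mark its 4 codons. The first group rose in Prmt5cKO forelimbs, and the last stretch, of Dhx38, belongs to a helicase that fell.
Ddx55: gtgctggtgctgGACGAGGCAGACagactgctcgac
Ddx18: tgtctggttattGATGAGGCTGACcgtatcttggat
Ddx21: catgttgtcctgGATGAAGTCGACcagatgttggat
Ddx20: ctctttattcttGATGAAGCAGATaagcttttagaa
Ddx46: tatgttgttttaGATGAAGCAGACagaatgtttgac
Ddx39: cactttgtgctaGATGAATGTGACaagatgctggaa
Dhx33: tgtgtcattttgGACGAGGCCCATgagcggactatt
Dhx35: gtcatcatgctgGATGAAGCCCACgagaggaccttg
Dhx38: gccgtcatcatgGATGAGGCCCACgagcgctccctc
These stretches show that the members differ in the last codon of the box, which separates the DEAD from the DEAH class, and in the third codon. The codons spelled DEAD in 25 of the 50 helicases and DEAH in 8. Ddx21 and its paralogue Ddx50 had the variant DEVD and Ddx39 had DECD. In 6 of the 50, Ddx11, Ddx26b, Ddx28, Ddx58, Dhx32 and Dhx58, the search found no box with its neighbouring motifs at the distances allowed.

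For each gene the authors gave a single FPKM per genotype, made from the samples of that genotype. Neither an SD over samples nor the depth of a sample can be had from it. Prmt5 stood at 12.5 FPKM in Prmt5cKO and 40.9 FPKM in control forelimbs, and its log2 fold change was -1.71 in the authors' deposited table. The part of the gene that the conditional allele loses is not stated. The summed level of 7 limb mesenchyme markers, Prrx1 and the forelimb factor Tbx5 among them, was 518 FPKM in Prmt5cKO and 517 FPKM in control, and the hindlimb factor Pitx1 was at 0.268 FPKM in Prmt5cKO and 0.143 FPKM in control. Tbx4, the other hindlimb marker, was at 2.95 FPKM in Prmt5cKO and 3.81 FPKM in control (in the authors' deposited table, log2 fold change -0.37 and q = 0.157). The genotypes differed in sex-linked transcripts: Xist was at 0.392 FPKM in Prmt5cKO and 87.3 FPKM in control, and the Y-linked Ddx3y at 21.8 FPKM in Prmt5cKO and 0.0840 FPKM in control. Genotype and embryo sex therefore cannot be told apart in any difference given here. Ddx3x, the X-linked counterpart of Ddx3y, was at 150 FPKM in Prmt5cKO and 201 FPKM in control. In a bulk sample, fewer cells of a type and less RNA per cell cannot be told apart either.

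Rises outnumbered falls among the helicases, whereas falls outnumbered rises among all genes. A gene was counted as changed where its mean reached 1 FPKM and its q-value in the authors' deposited table was under 0.05. By this rule 4 helicases of ribosome assembly rose (Ddx55, Dhx33, Ddx21 and Ddx18), as did 4 of splicing and snRNP assembly (Ddx39, Dhx35, Ddx46 and Ddx20). Dhx38, a splicing helicase, and Ddx11, a DNA helicase, fell, 28 helicases were short of the threshold and 7 lack a test by the authors. These 7 are in neither count, and all of them except Ddx23 had a lower value in Prmt5cKO than in control. The 8 rises were 21.1% of the 38 helicases tested, against 4.83% of 10617 genes tested, and the 2 falls 5.26%, against 19.3%. Counted in either direction, 24.1% of all genes tested had changed. Beside these shares, 4 of the 20 tested members in which the search found DEAD rose and none fell. Of the 7 tested ones in which it found DEAH, 2 rose and 1 fell. Among the 4 tested ones in which it found no box, none rose and 1, Ddx11, fell. At a q under 0.01 in the authors' deposited table, 3 of the 38 helicases rose (Ddx39, Dhx35 and Ddx46), against 342 of the 10617 genes (3.22%). The same 2 of the 38 fell, against 1439 of the 10617 genes (13.6%). A further count took a q under 0.05 and also asked for a change of at least 1.5-fold after centring on the median ratio of all genes. By it 2 of the 38 helicases rose (Dhx35 and Ddx55), against 248 of the 10617 genes (2.34%). None of the 38 fell, against 458 of the 10617 genes (4.31%).

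All changes among the called helicases were below 2-fold. The largest was that of Dhx35, at 148% of the control level, and the smallest rises were those of Dhx33 and Ddx20, both at 117%. The whole table leaned downwards, with a median log2 ratio of -0.12 over 11674 genes on the log2(FPKM + 1) scale, which is used for all ratios and medians below. The median over the 45 helicases was 0.09 on the same scale, 0.20 above that of all genes. Of the 45, 33 (73.3%) lay above the all-gene median and 28 had a ratio above 1.

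**Figure D1:**
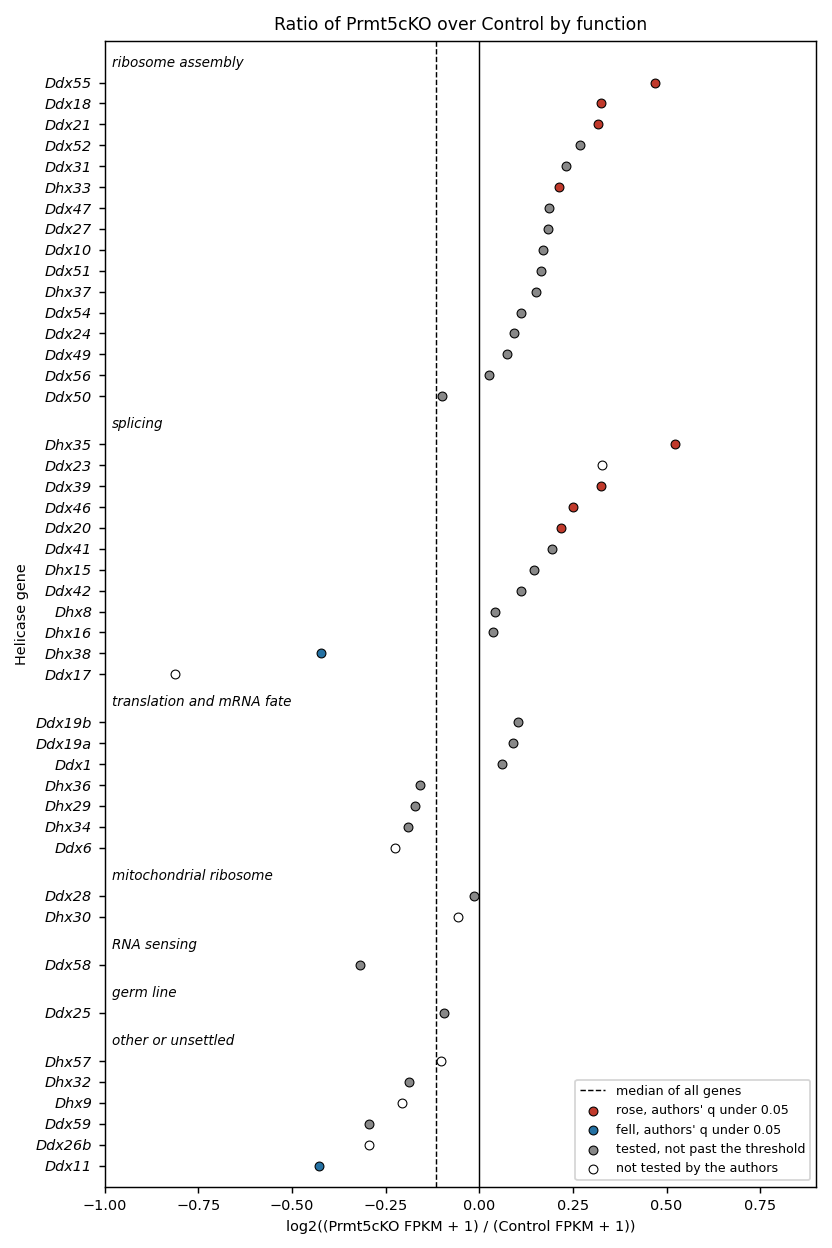
Log2 ratio of Prmt5cKO over Control (horizontal axis, on the FPKM + 1 scale) for the 45 helicases at a mean of at least 1 FPKM, grouped by function; point colour gives the authors' call, open points were not tested, and the dashed line is the median of 11674 genes (-0.12). Every helicase of ribosome assembly lies to the right of the dashed line, and Ddx17 (-0.81) is the point farthest to the left.

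Of 16 helicases of ribosome assembly, all of which were tested, 4 (25.0%) rose, against 4.83% of all genes tested. None of the 16 fell, against 19.3% of all genes tested, and 12 were short of the threshold. The median log2 ratio of the 16 was 0.18, against -0.12 for all genes, and 15 of the 16 had a ratio above 1. Ddx55, whose yeast counterpart Spb4 acts in assembly of the large subunit, was at 10.4 FPKM in Prmt5cKO and 7.27 FPKM in control (in the authors' deposited table, log2 fold change 0.52 and q = 0.0134). It lies at chr5:124552864-124569660 on the plus strand (GRCm38, GENCODE M21). Ddx18, whose yeast counterpart Has1 acts on precursors of both subunits, was at 55.8 FPKM in Prmt5cKO and 44.3 FPKM in control (in the authors' deposited table, log2 fold change 0.33 and q = 0.0391) and lies at chr1:121553835-121567989 on the minus strand. Dhx33, a DEAH-box protein of the nucleolus that promotes transcription of ribosomal RNA, was at 17.4 FPKM in Prmt5cKO and 14.9 FPKM in control (in the authors' deposited table, log2 fold change 0.23 and q = 0.0180), from chr11:70984091-71004437 on the minus strand.

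Ddx21 and Ddx50 are nucleolar paralogues that lie next to each other on chromosome 10, at chr10:62580251-62602281 and chr10:62615895-62651218, both on the minus strand. Ddx21, which binds ribosomal RNA and ribosomal DNA and aids both transcription and processing, rose, with 36.8 FPKM in Prmt5cKO and 29.4 FPKM in control (in the authors' deposited table, log2 fold change 0.33 and q = 0.0344). Ddx50 had 53.2 FPKM in Prmt5cKO and 57.1 FPKM in control (in the authors' deposited table, log2 fold change -0.10 and q = 0.354) and was the lone helicase of ribosome assembly with a ratio below 1. Whether the responses of this pair differ was not tested. Their coding sequences were 71.8% identical over 1569 aligned bases.

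The 11 other helicases of ribosome assembly did not pass, although each had a higher value in Prmt5cKO than in control. Ddx52, the counterpart of yeast Rok1 of the small subunit, was nearest in size, with 34.0 FPKM in Prmt5cKO and 28.0 FPKM in control (in the authors' deposited table, log2 fold change 0.28 and q = 0.113). Ddx31, a nucleolar helicase, followed with 9.37 FPKM in Prmt5cKO and 7.84 FPKM in control (in the authors' deposited table, log2 fold change 0.26 and q = 0.317). Ddx47, Ddx27, Ddx10, Ddx51 and Dhx37, which are counterparts of yeast factors that act on ribosomal RNA precursors, had log2 ratios between 0.15 and 0.18. Ddx54, Ddx24, Ddx49 and Ddx56, the counterparts of yeast Dbp10, Mak5, Dbp8 and Dbp9, had log2 ratios between 0.03 and 0.11. Among these, Ddx56 was the least different, with 23.8 FPKM in Prmt5cKO and 23.4 FPKM in control.

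**Figure D2:**
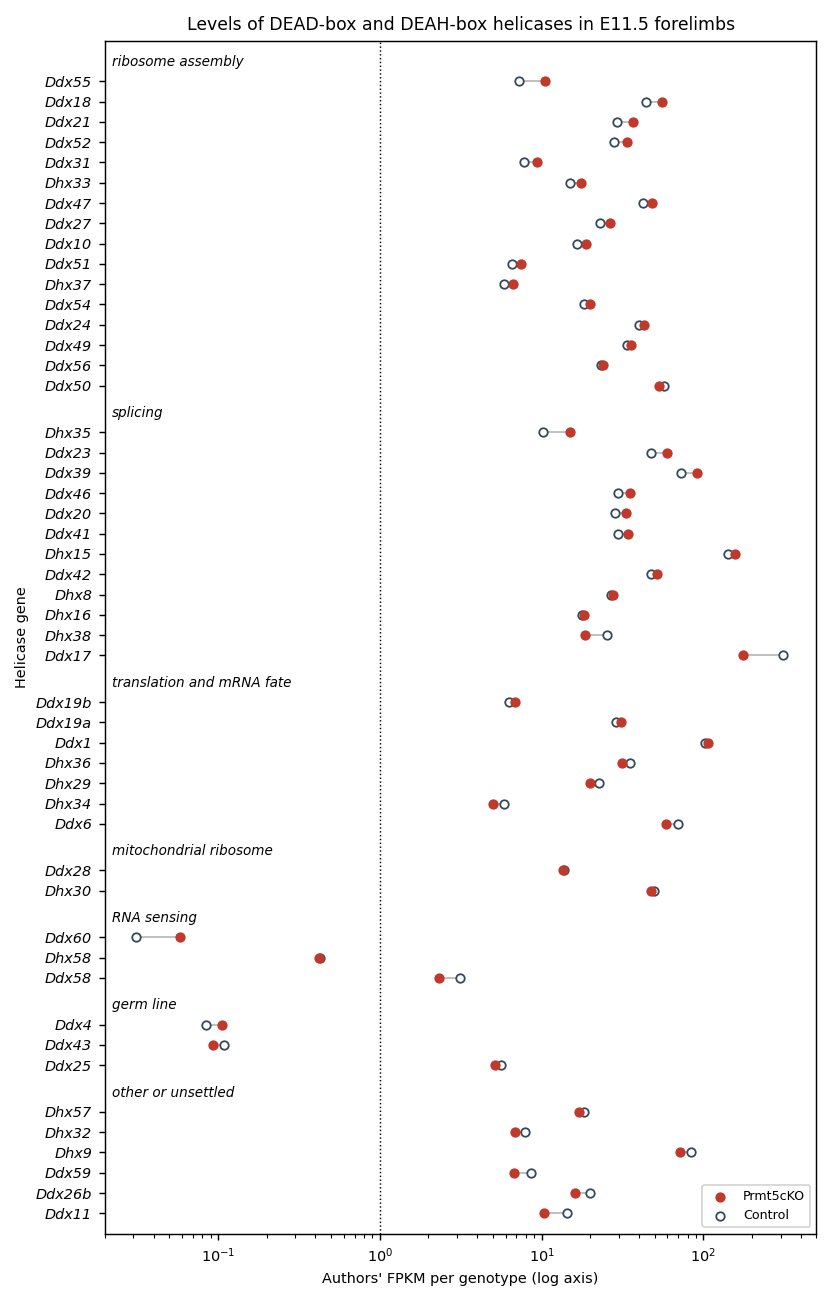
FPKM in Prmt5cKO (filled) and Control (open) forelimbs on a log axis for the 49 helicases above 0, grouped by function; the dotted line marks 1 FPKM and each point is 1 value per genotype made by the authors. Apart from Ddx50, the Prmt5cKO point lies to the right of the Control point for each helicase of ribosome assembly, and Ddx60, Ddx4, Ddx43, Dhx58 and Ddx58 hold the lowest levels.

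Of 12 helicases of splicing and snRNP assembly, 10 were tested and 2 lack a test. Of the 10 tested, 4 (40.0%) rose, against 4.83% of all genes tested. Among the same 10, 1 fell, against 19.3% of all genes tested, and 5 were short of the threshold. Of the 12, 10 had a ratio above 1. The median log2 ratio of the 12 was 0.17, against -0.12 for all genes. Dhx35, a DEAH-box protein found in the catalytically active spliceosome, was at 15.1 FPKM in Prmt5cKO and 10.2 FPKM in control (in the authors' deposited table, log2 fold change 0.57 and q = 2.5e-04) and lies at chr2:158794807-158858214 on the plus strand. Ddx39, which acts in splicing and mRNA export, was at 91.7 FPKM in Prmt5cKO and 73.0 FPKM in control (in the authors' deposited table, log2 fold change 0.33 and q = 6.96e-07). It lies at chr8:83715177-83726892 on the plus strand, where its exons overlap those of Adgre5 on the other strand, and whether the libraries kept strand is not given. Its paralogue Ddx39b shares a row with Mir8094 and so fell outside the rule, and this row was at 329 FPKM in Prmt5cKO and 301 FPKM in control and was not tested. The coding sequences of Ddx39 and Ddx39b were 81.1% identical over 1283 aligned bases.

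The other rises in this group were those of Ddx46 and Ddx20. Ddx46, the counterpart of yeast Prp5, which helps the U2 snRNP onto the branch site, was at 35.4 FPKM in Prmt5cKO and 29.6 FPKM in control (in the authors' deposited table, log2 fold change 0.26 and q = 0.00632), from chr13:55635027-55681256 on the plus strand. Ddx20, also called Gemin3, belongs to the SMN complex that loads Sm proteins onto small nuclear RNAs. It was at 33.4 FPKM in Prmt5cKO and 28.6 FPKM in control (in the authors' deposited table, log2 fold change 0.23 and q = 0.0348), from chr3:105678270-105687574 on the minus strand.

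Dhx38 went the other way. It is the counterpart of yeast Prp16, which remodels the spliceosome between the catalytic steps, and it fell to 18.7 FPKM in Prmt5cKO, against 25.4 FPKM in control (in the authors' deposited table, log2 fold change -0.44 and q = 1.6e-04), from chr8:109548011-109565861 on the minus strand. The other DEAH-box helicases that drive successive spliceosome rearrangements did not pass. Dhx16 (yeast Prp2), which acts before the first step, was at 18.3 FPKM in Prmt5cKO and 17.8 FPKM in control. Dhx8 (yeast Prp22), which releases the spliced mRNA, was at 27.5 FPKM in Prmt5cKO and 26.7 FPKM in control. Dhx15 (yeast Prp43), which takes apart the used complex, was at 157 FPKM in Prmt5cKO and 142 FPKM in control (in the authors' deposited table, log2 fold change 0.15 and q = 0.320). The DEAD-box proteins Ddx41, found in late spliceosomes, and Ddx42, a partner of the U2 snRNP, did not pass either. Ddx41 was at 34.3 FPKM in Prmt5cKO and 29.9 FPKM in control, and Ddx42 at 51.6 FPKM in Prmt5cKO and 47.7 FPKM in control.

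Ddx17 had the log2 ratio farthest from 0 of the 45 helicases (-0.81) and has no test. This DEAD-box protein, a cofactor in splicing, microRNA processing and transcription, was at 177 FPKM in Prmt5cKO and 312 FPKM in control, 56.8% of the control level. The authors' deposited table gives it a fold of 0 and a q of 1 in spite of these unequal values, the pattern read here as not tested, so it is counted in no direction. Its exons overlap those of Kdelr3 on the other strand. Its paralogue Ddx5 shares a row with Mir3064, outside the rule, at 353 FPKM in Prmt5cKO and 382 FPKM in control (in the authors' deposited table, log2 fold change -0.11 and q = 0.147). The coding sequences of Ddx17 and Ddx5 were 74.2% identical over 1351 aligned bases. Ddx23 (yeast Prp28), which helps to hand the 5′ splice site to the U6 snRNA, was the other untested member, at 59.9 FPKM in Prmt5cKO and 47.6 FPKM in control.

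None of the 6 tested helicases of export, translation and mRNA turnover passed the threshold in either direction, by the q in the authors' deposited table, and Ddx6 lacks a test. Among all genes tested 24.1% had changed in either direction, so an absence of calls among 6 genes does not set this group apart. Unadjusted p-values and the name of the authors' test are not given in the sources used. The median log2 ratio of all 7 was -0.16, against -0.12 for all genes. Ddx1, a member of the tRNA ligase complex, was at 107 FPKM in Prmt5cKO and 103 FPKM in control, and the mRNA export helicases Ddx19a and Ddx19b were at 30.9 and 6.82 FPKM in Prmt5cKO, against 29.0 and 6.28 FPKM in control. Ddx19a and Ddx19b are neighbours with coding sequences 94.2% identical over 1379 aligned bases, so how the authors' counting divided their reads is uncertain. Dhx29, which helps ribosomes scan structured leaders, came nearest to the threshold, at 20.0 FPKM in Prmt5cKO and 22.7 FPKM in control (in the authors' deposited table, log2 fold change -0.18 and q = 0.0592). Dhx36, which unwinds G-quadruplexes, was at 31.3 FPKM in Prmt5cKO and 35.1 FPKM in control. Dhx34 of nonsense-mediated decay was at 5.04 FPKM in Prmt5cKO and 5.89 FPKM in control. Ddx6, which promotes mRNA decapping and holds back translation, was at 59.1 FPKM in Prmt5cKO and 69.3 FPKM in control.

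**Figure D3:**
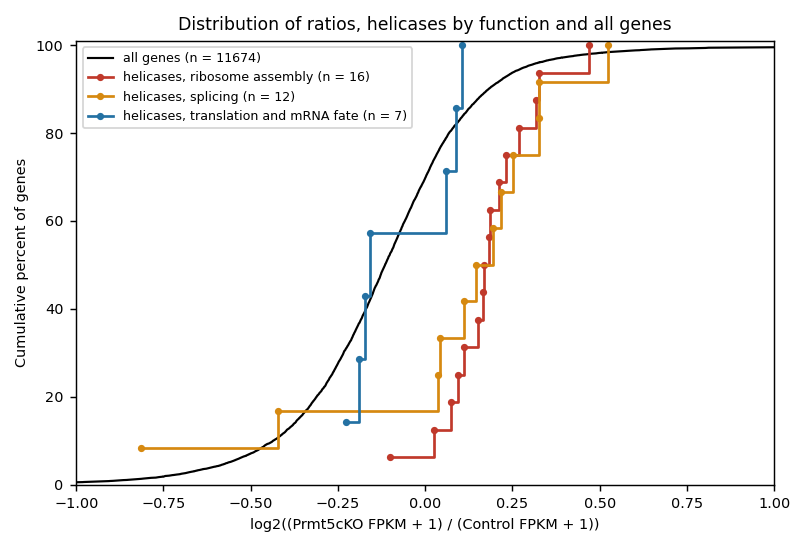
Cumulative percent of genes (vertical axis) by log2 ratio of Prmt5cKO over Control on the FPKM + 1 scale, for helicases of 3 functions and for 11674 genes. The curves for ribosome assembly and splicing run to the right of that of all genes over most of their length, with Ddx17 and Dhx38 as the low end of the splicing curve, while the curve for translation and mRNA fate crosses that of all genes.

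The cytoplasmic sensors of foreign RNA were at low levels in both genotypes. Ddx58, which encodes RIG-I, was at 2.32 FPKM in Prmt5cKO and 3.15 FPKM in control (in the authors' deposited table, log2 fold change -0.44 and q = 0.200). Dhx58, which encodes the related LGP2, was at 0.420 FPKM in Prmt5cKO and 0.427 FPKM in control, and Ddx60 at 0.0585 FPKM in Prmt5cKO and 0.0310 FPKM in control, both below the minimum level. Of 18 genes measured in the wider sensing pathway, 7 reached the minimum, and their median log2 ratio was -0.08. None of the 6 tested ones rose or fell, beside 24.1% of all genes tested that changed in either direction. Below the minimum, Ifit3 was at 0.461 FPKM in Prmt5cKO and 1.13 FPKM in control (in the authors' deposited table, log2 fold change -1.29 and q = 0.0195). Of the other pathway genes below it, Ifit1, Irf7, Isg15, Mx2, Rsad2, Tlr3 and Usp18 were also lower in Prmt5cKO than in control. Mx1, Oasl2 and Trim25, below the minimum too, were higher in Prmt5cKO. Ifih1, the sensor MDA5 that lies outside the naming rule, was at 0.322 FPKM in Prmt5cKO and 0.331 FPKM in control. The summed level of 11 macrophage markers was 46.2 FPKM in Prmt5cKO and 26.0 FPKM in control. Of the 9 that were tested, 6 (66.7%) rose and none fell, against 4.83% and 19.3% of all genes tested. Cd14, below the minimum level, went the other way, at 0.585 FPKM in Prmt5cKO and 0.806 FPKM in control. The part of macrophages in the sensors' values was not tested.

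Helicases known from germ cells were also low: Ddx4, the germ cell marker VASA, was at 0.106 FPKM in Prmt5cKO and 0.0845 FPKM in control, and Ddx43 at 0.0938 FPKM in Prmt5cKO and 0.108 FPKM in control. Ddx25, a testis helicase of mRNA export and storage, was an exception, at 5.19 FPKM in Prmt5cKO and 5.61 FPKM in control (in the authors' deposited table, log2 fold change -0.11 and q = 0.778). Germ cell markers summed to 3.09 FPKM in Prmt5cKO and 2.91 FPKM in control, with Sycp3 at 1.92 FPKM in Prmt5cKO and 1.85 FPKM in control. The helicases of the mitochondrial ribosome showed no call, with Ddx28 at 13.7 FPKM in Prmt5cKO and 13.8 FPKM in control and Dhx30, untested, at 47.4 FPKM in Prmt5cKO and 49.4 FPKM in control.

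In the remaining group of other or unsettled roles, Ddx11 fell. It encodes a DNA helicase of sister chromatid cohesion rather than an RNA helicase, and was at 10.4 FPKM in Prmt5cKO and 14.3 FPKM in control (in the authors' deposited table, log2 fold change -0.46 and q = 4.67e-08), from chr17:66123520-66152174 on the plus strand. Ddx59, a gene whose human counterpart is mutated in an orofaciodigital syndrome with extra digits, did not pass, at 6.80 FPKM in Prmt5cKO and 8.56 FPKM in control (in the authors' deposited table, log2 fold change -0.33 and q = 0.188). Dhx32 did not pass either, at 6.81 FPKM in Prmt5cKO and 7.90 FPKM in control. Dhx9, which unwinds double-stranded RNA and RNA-DNA hybrids, was not tested, at 72.2 FPKM in Prmt5cKO and 83.4 FPKM in control. Ddx26b, the lone X-linked member and a relative of the Integrator subunit gene Ints6, was not tested either, at 16.0 FPKM in Prmt5cKO and 19.9 FPKM in control, nor was Dhx57, at 17.0 FPKM in Prmt5cKO and 18.4 FPKM in control. Dhx40 is listed at 0 in both genotypes. The 6 members that reached the minimum all had ratios below 1, with a median log2 ratio of -0.25.

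Partners of these helicases in the same processes are given beside them. Of 52 tested ribosome assembly factors that are not helicases, 13 (25.0%) rose and 2 fell (Nvl and Ubtf), with a median log2 ratio of 0.22 over 56; Noc2l, Dkc1 and Utp15 had the smallest q-values. Of 39 tested spliceosome proteins 7 (17.9%) rose and 1 fell, with a median of 0.12 over 42. Prpf3 of the tri-snRNP was at 35.0 FPKM in Prmt5cKO and 19.7 FPKM in control. A second, lower row of Prpf3, not kept, was at 1.14 FPKM in Prmt5cKO and 0.969 FPKM in control (in the authors' deposited table, log2 fold change 0.23 and q = 0.716). U2af1, which marks the 3′ splice site, was at 144 FPKM in Prmt5cKO and 117 FPKM in control. Prpf31, the one that fell, was at 42.2 FPKM in Prmt5cKO and 50.7 FPKM in control. The log2 fold changes of the kept Prpf3 row, U2af1 and Prpf31 were 0.83, 0.30 and -0.26 in the authors' deposited table. Of 20 tested partners in initiation, export and decay none rose and 3 (15.0%) fell, Eif4g2, Dcp1a and Upf2, against 4.83% and 19.3% of all genes tested, with a median of -0.05 over 27. Eif4g2, an initiation factor related to eIF4G, was at 280 FPKM in Prmt5cKO and 359 FPKM in control (in the authors' deposited table, log2 fold change -0.36 and q = 3.59e-06).

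RNA helicases outside the naming rule had 2 rises and 2 falls among 14 tested (14.3% each), against 4.83% and 19.3% of all genes tested, and a median log2 ratio of -0.06 over 16. Snrnp200 (yeast Brr2), which unwinds the U4 and U6 snRNAs, was at 148 FPKM in Prmt5cKO and 90.8 FPKM in control (in the authors' deposited table, log2 fold change 0.70 and q = 2.08e-07). Eif4a3 of the exon junction complex was at 160 FPKM in Prmt5cKO and 130 FPKM in control (in the authors' deposited table, log2 fold change 0.31 and q = 0.0468), while the falls were Mov10, at 8.43 FPKM in Prmt5cKO and 11.8 FPKM in control, and Ythdc2, at 5.90 FPKM in Prmt5cKO and 7.13 FPKM in control. G-patch proteins, which switch on DEAH-box helicases, had 2 rises and 2 falls among 13 tested (15.4% each), beside the same shares of all genes. Nkrf, a G-patch partner of Dhx15 in ribosomal RNA processing, was at 4.41 FPKM in Prmt5cKO and 3.17 FPKM in control, and Gpatch4 at 7.95 FPKM in Prmt5cKO and 5.95 FPKM in control. Gpatch2 fell to 12.0 FPKM in Prmt5cKO, against 16.2 FPKM in control, and Gpatch11 to 4.25 FPKM in Prmt5cKO, against 5.55 FPKM in control.

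**Figure D4:**
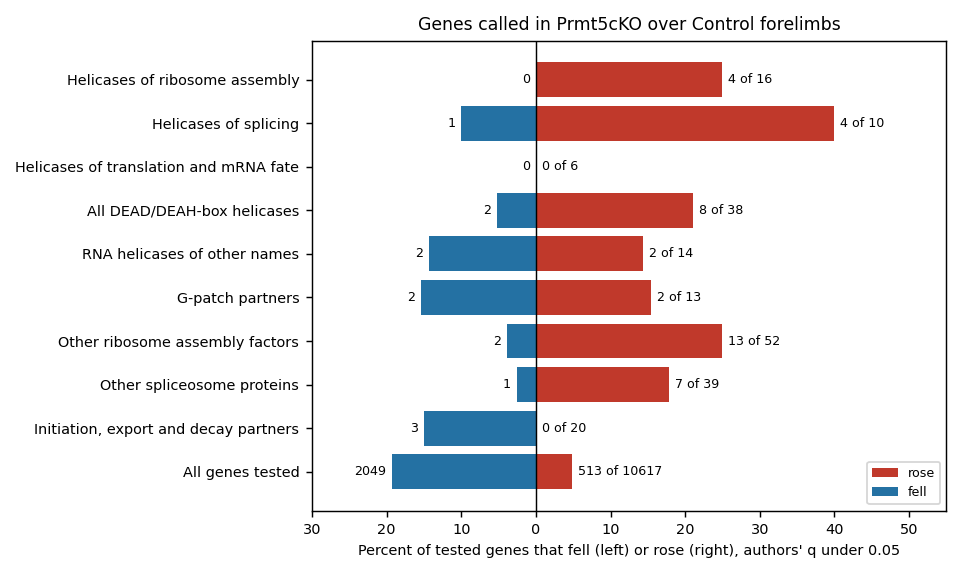
Percent of tested genes that rose (right) or fell (left) at the authors' q under 0.05 for helicases by function, their partner lists and all genes, with counts beside the bars. Falls outnumber rises among all genes (2049 and 513 of 10617), and rises outnumber falls among helicases and partners of ribosome assembly and splicing.

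RefSeq promoters (GRCm38.p6, from 250 bases before to 50 after the gene start) were matched for 44 of the 50 helicases; Ddx11, Ddx23, Ddx39, Ddx6, Dhx38 and Dhx58 have none here. The ETS core CCGGAAG, searched on both strands, was in 17 of the 44 (38.6%), against 9.12% of 27025 promoters and 18.4% of the 8750 promoters of genes at a mean of 1 FPKM or more. The E-box CACGTG, which reads the same on both strands, was in 5 of the 44 (11.4%), against 7.24% of all promoters and 10.3% of those of expressed genes. A CCAAT box, searched as CCAAT on both strands, was in 23 (52.3%), against 37.9% of all promoters and 39.3% of those of expressed genes. TATAAA was in 2 (4.55%), against 14.2% of all promoters and 6.54% of those of expressed genes. The 44 include Ddx4, Ddx43, Ddx60 and Dhx40, which lie below 1 FPKM, so the shares of expressed genes are not a like comparison. Of these low members, Ddx4 and Dhx40 hold the E-box and Ddx60 holds TATAAA. Ddx4, Ddx43 and Ddx60 hold the CCAAT box, and none of the low members holds the ETS core. These matches are counts of letters and were not tested.

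Among the 7 risen helicases with a promoter, 2 held the E-box (Dhx33 and Dhx35), 2 the ETS core (Ddx55 and Dhx35) and 2 the CCAAT box (Ddx18 and Dhx35). Among all 44 helicases with a promoter, 5 held the E-box, 17 the ETS core and 23 the CCAAT box. Whether any of these motifs goes with the rise was not tested. The 250 bases before the start of Dhx35 are shown because it had the largest rise and holds 3 of these motifs, in capitals: the CCAAT box, 2 copies of the E-box and the ETS core, in this order. They lie at chr2:158794557-158794806 on the plus strand.
Dhx35: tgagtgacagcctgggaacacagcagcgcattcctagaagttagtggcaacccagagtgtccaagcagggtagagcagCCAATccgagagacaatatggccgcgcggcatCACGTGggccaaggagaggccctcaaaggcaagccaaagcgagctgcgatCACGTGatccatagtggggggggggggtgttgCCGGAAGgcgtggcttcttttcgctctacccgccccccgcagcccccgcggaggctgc
The E-box of Dhx33 begins 35 bases before the start. It is shown in capitals within chr11:71004450-71004479, read on the minus strand.
Dhx33: ccagcacgcctgCACGTGgcgagaaagggg
The letters of none of the 4 motifs were in the windows of Ddx21, Ddx20 and Ddx46.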

How the data were processed

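RNA-seq of 3 Control and 2 Prmt5cKO forelimb samples, grouped by their titles, was used as deposited. Per the submitters' processing notes, TopHat2 2.0.10, Bowtie2 2.1.0, Cufflinks 2.1.1 and mm10 were used; those notes give no roles, and the annotation, the test and the way replicates were combined are not given in the sources used. Each of 28092 rows holds, per the file headers, the authors' FPKM for either genotype, their q-value and their log2 fold change (Prmt5cKO over Control). Depth per sample is unknown, and only values per genotype were used, so the limma fit planned for that case was not run and every q-value is the authors'. The deposited log2 fold changes differed from the log2 ratio of the FPKM columns by at most 1.3e-05 over 20663 rows.

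Rows that name no gene (15.5%, holding 2.08% of the FPKM in Prmt5cKO and 1.94% in Control) or several genes (597) were left out, and 1 row per symbol was kept. A fold of 0 joined to a q of 1 was taken as no test (1057 of 11674 genes at a mean of at least 1 FPKM, 9.05%; 15.6% of the helicases). Called genes had a mean of at least 1 FPKM and a q under 0.05. Log2 ratios used a pseudocount of 1 FPKM, which understates changes of low genes. FPKM does not correct for composition. The members, function lists and naming rule (every helicase; of each partner list the 3 smallest q-values) were chosen with earlier results of these data known; members of counts of 5 or fewer outside that rule were named after their values were seen. The counting was tested on simulated data. Box codons were searched in the longest complete coding transcript of GENCODE M21 for the letters DE, any amino acid and D or H, with GKT or GKS before and SAT, TAT, SAN or TAN after it. The planned search in RefSeq proteins was replaced by this. Coding sequences were aligned with blastn 2.17.0; pandas 2.3.3 and numpy 2.4.6 did the rest. The shorter deposited table (208 rows) lists none of the 50 helicases.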

Additional observations from a re-analysis of the deposited data

How the results depend on the processing

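The q-values are the authors', so settings could change which values were counted but not the test itself. The helicases that rose numbered 3 instead of 8 at a q under 0.01, and 2 (Dhx35 and Ddx55) where a change of at least 1.5-fold after centring on the median ratio was also asked, which left 0 falls instead of 2. The remaining alternatives gave 8 rises, and 2 or 3 falls. Called members kept their sign under centring and quantile normalization. Of 45 alternative medians, set against that of all genes, 40 moved by less than 0.1 on the log2 scale. With no minimum level the medians were 0.064 for all helicases (0.20 in the report's setting), 0.19 for ribosome assembly (0.29), 0.18 for splicing (0.28) and -0.15 for translation and mRNA fate (-0.04), because this brings unexpressed genes at a ratio of 1 into the median of all genes and, for all helicases, also the 5 low or unexpressed members into theirs. Without untested rows the last was 0.065, since Ddx6 drops out. Leaving out each replicate was not run, because the files used here hold 1 value per genotype. No paired analysis was possible because the columns carry no replicate numbers. How far the values differ between samples, and so how precise a change of under 1.5-fold is, is unknown.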
